A study of Mus musculus with 22 samples.

Results

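The protein arginine methyltransferases are a family of enzymes that transfer methyl groups from S-adenosylmethionine to arginine side chains of histones, RNA-binding proteins and signalling proteins. Expression of 8 members of this family, Prmt1, Prmt2, Prmt3, Carm1, Prmt5, Prmt6, Prmt7 and Prmt8, was described in 22 single mouse astrocytes. The genes were chosen by family name from the 23453 gene symbols of the count table, with read counts of these same cells already known. Prmt8 had also been named by the study of these cells as differing between S-type and T-type cells, which are described below. Levels of the genes and differences between cells are therefore given as descriptions, and no test between types was applied to them.

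The cells were primary astrocytes cultured from the cortex of single C57BL/6 pups at postnatal day 0 to 1. Cultures had been shaken and exposed to cytosine arabinoside to remove other cell types, and serum had been withdrawn before recording. Every cell was loaded with the calcium indicator Fluo-4 and exposed to EtOH, including those that did not respond, so no group was free of EtOH. The 6 S-type cells had a slow calcium rise with a slow decay, the 6 T-type cells a transient rise, the 5 M-type cells a mixed pattern, and the 5 NR cells no response above the threshold. Each library was the amplified RNA of 1 cell, aspirated after its recording. No label names the pup or culture of a cell, so each type was treated as 1 sample, cells were not taken as replicates of a type, and no p-value was computed.

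Members of the family differ in the mark they leave. Type I enzymes (Prmt1, Prmt2, Prmt3, Carm1, Prmt6 and Prmt8) make monomethylarginine and asymmetric dimethylarginine, the type II enzyme Prmt5 makes symmetric dimethylarginine, and Prmt7 is a type III enzyme that makes monomethylarginine only. In the brain, Prmt1 is known as the main source of asymmetric dimethylarginine, Prmt5 and Prmt1 act in neural and glial progenitors, and Prmt8, a membrane-anchored relative of Prmt1, is known for its expression in neurons.

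All members share a catalytic core in which a pair of glutamates holds the arginine of the substrate. The coding sequence that ends with this pair is shown because Prmt1 and Prmt8 encode the same residues there, and their reads must be told apart for the Prmt8 values below. Each line gives 75 coding bases from the GENCODE vM21 transcripts (GRCm38, the build of the alignment), 5′ to 3′ on the sense strand, with the codons of the 2 glutamates in capitals.
Prmt1: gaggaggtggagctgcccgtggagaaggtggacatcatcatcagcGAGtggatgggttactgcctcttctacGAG
Prmt8: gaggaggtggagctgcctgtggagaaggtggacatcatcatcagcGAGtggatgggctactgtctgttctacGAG
Prmt3: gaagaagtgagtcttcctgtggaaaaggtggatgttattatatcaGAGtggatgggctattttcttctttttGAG
Prmt6: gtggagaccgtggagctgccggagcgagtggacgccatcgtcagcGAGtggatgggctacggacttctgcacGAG
Prmt2: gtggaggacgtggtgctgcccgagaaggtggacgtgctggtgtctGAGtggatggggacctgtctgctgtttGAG
Carm1: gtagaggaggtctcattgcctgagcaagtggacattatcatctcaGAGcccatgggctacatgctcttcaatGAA
Prmt5: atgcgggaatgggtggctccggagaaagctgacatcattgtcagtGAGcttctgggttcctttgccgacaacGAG
Prmt7: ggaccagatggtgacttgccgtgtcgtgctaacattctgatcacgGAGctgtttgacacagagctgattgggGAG

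Prmt8 matched Prmt1 at 71 of these 75 bases, and the 4 bases that differed changed none of the 25 encoded residues. Identity to Prmt1 was 51 bases in Prmt6, 50 in Prmt3, 47 in Prmt2, 45 in Carm1, 44 in Prmt5 and 26 in Prmt7. In encoded residues the order was different, with 20 of 25 shared by Prmt3, 15 by Carm1, 13 each by Prmt2 and Prmt6, 9 by Prmt5 and 5 by Prmt7. The stretch lies within exon 6 of Prmt1 (chr7:44979425-44979499), exon 5 of Prmt8 (chr6:127711824-127711898), exon 1 of Prmt6 (chr3:110250471-110250545), exon 6 of Carm1 (chr9:21580363-21580437) and exon 12 of Prmt5 (chr14:54510922-54510996). It crosses an intron in Prmt3 (chr7:49806573-49818052, exons 10 and 11), Prmt2 (chr10:76217484-76221066, exons 6 and 7) and Prmt7 (chr8:106227313-106234915, exons 5 and 6).

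The longest run of identical coding bases between any 2 members was 38, between Prmt1 and Prmt8, and the next was 20, between Prmt6 and Prmt8. No window of 75 bases in a Prmt1 transcript occurred in a transcript of another gene, and none of Prmt8 occurred in another member. Exons of some members overlap a gene on the other strand, and it is not stated whether the counting used the strand. In Carm1, 1025 exon bases (21.1% of its exons) lie opposite Yipf2, in Prmt6 984 bases (23.4%) lie opposite C130013H08Rik, in Prmt8 233 bases (8.55%) lie opposite Gm42738, and in Prmt7 247 bases (4.03%) lie opposite Smpd3. Yipf2 had 5970 reads over the 22 cells against 252 of Carm1, so reads of the shared stretch could weigh on the Carm1 count.

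Total counts per cell ran from 2937786 to 22131076 (median 16965582), and 58918 of all reads were of the 8 members. Levels below are normalised read counts, the reads of a gene divided by the size factor of its cell, which ran from 0.183 to 2.31. The smallest 2 factors were those of T-type 3 (0.183) and T-type 2 (0.276), and T-type 2 also had the fewest genes with a read (6319). The level of a type is the mean over its cells, and 3 reads over all cells of a type correspond to 0.402 normalised counts for S-type cells, 0.622 for T-type, 0.319 for M-type and 0.397 for NR. The 95% intervals below take their width from the exact binomial split of the summed reads and are placed around the ratio of type levels. Summed reads are not weighted by size factor, so an interval can be too narrow where a small library holds much of a level. Libraries had no molecular identifiers, so the intervals cover counting error only. All 10 astrocyte markers were read in every type, with a summed level of 1051 to 8972 CPM, that is, reads scaled to the total of the cell. Other marker lists exceeded the astrocyte sum in some of the cells that were highest for a member. In T-type 5, highest for Prmt1, mural and fibroblast markers summed to 4245 CPM and cycling markers to 4171, against 1715 for astrocytes. In S-type 2, highest for Prmt3, cycling markers were at 7377 and neuronal markers at 2076, against 1360 for astrocytes. Cycling markers were at 5975 against 4435 in S-type 1, highest for Carm1. In T-type 6, highest for Prmt7, mural and fibroblast markers were at 2451 against 2439. They also exceeded the astrocyte sum in S-type 5 (7410 against 1425), T-type 1 (4710 against 2118), M-type 1 (1431 against 1051) and NR 4 (1439 against 1202). M-type 1 was the highest M-type cell for Prmt1, Prmt2, Prmt5 and Prmt6, and NR 4 had 1417 reads of Prmt8. In T-type 3, highest for Prmt2, oligodendrocyte lineage markers reached 3329 against 6081. Over all cells the mural and fibroblast list ran from 31.7 to 7410 CPM and the cycling list from 26.9 to 7377. The oligodendrocyte lineage list ran from 32.2 to 3329 and the neuronal list from 38.1 to 2076. Rgs5 and Sox10 were at 0 in every cell. The part of these lists in the values of the members was not tested.

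Summed over the 8 members, the family made up 47.5 to 361 CPM in S-type cells (median 204), 9.15 to 198 in T-type (median 109), 85.4 to 304 in M-type (median 181) and 61.9 to 215 in NR (median 190). These ranges overlapped between all types and the lowest cell, T-type 2, had 115 member reads in 12564138. Which gene led differed from cell to cell. Prmt8 made up 66.1% of the member reads in S-type 3 and 45% in NR 2, Prmt2 86.9% in T-type 3, Prmt3 81.6% in S-type 2, Prmt1 62.2% in T-type 5 and Prmt6 60.2% in NR 1. All 8 members were read in 10 cells, and in T-type 2 and T-type 3 only 3 members were read.

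**Figure D1:**
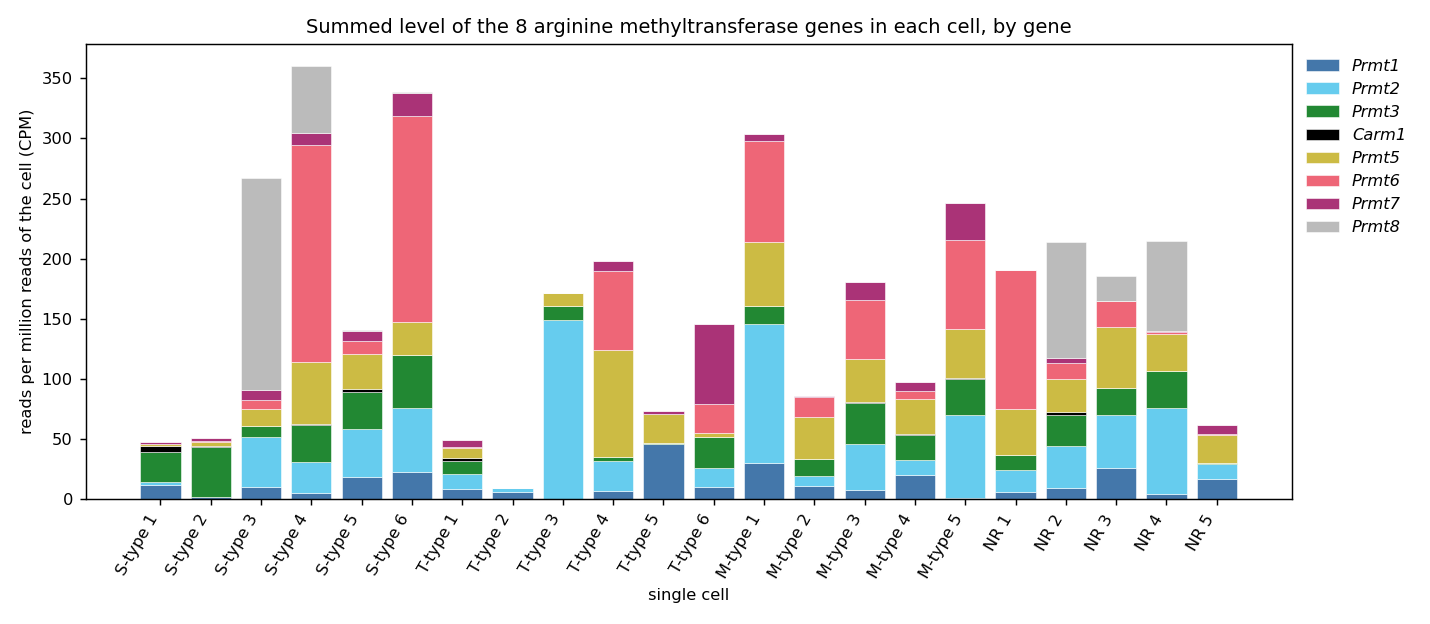
Stacked bars give the summed level of the 8 members in each of the 22 cells, in CPM (vertical axis), coloured by gene. The sum runs from 9.15 CPM in T-type 2 to 361 in S-type 4, and a different gene takes the largest share in neighbouring cells, such as Prmt8 in S-type 3 and Prmt6 in S-type 4.

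No member was read in all 22 cells, whereas 28.9% of the 12719 genes read in 5 or more cells were. Prmt1, Prmt2, Prmt3 and Prmt5 were each read in 21 cells, and the cell without a read was in every case a T-type cell. Prmt6 was read in 20 cells, Carm1 in 19, Prmt7 in 18 and Prmt8 in 12. With every cell thinned to 2937786 reads, Prmt8 was read in 7 cells and Carm1 in 13, and the other 6 members in 18 to 21.

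Per kilobase of exon, the order over the 22 cells was Prmt2 (132 normalised counts per kilobase), Prmt6 (104), Prmt5 (84.8), Prmt8 (73.6), Prmt1 (48.4), Prmt3 (40.2), Prmt7 (17.6) and Carm1 (1.9). Carm1 stood at or near the end of this order in every type, with 3.59 per kilobase in S-type against 1.58 in T-type, 1.54 in NR and 0.623 in M-type. Prmt8 changed place most, being the first of the 8 in NR, the second in S-type (144 per kilobase) and the last in T-type (0.251) and M-type (0.0634). Scaling by the longest transcript in place of all exons moved Prmt8 from the fourth place to the sixth and Prmt3 from the sixth to the fourth, and left the other 6 in place.

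**Figure D2:**
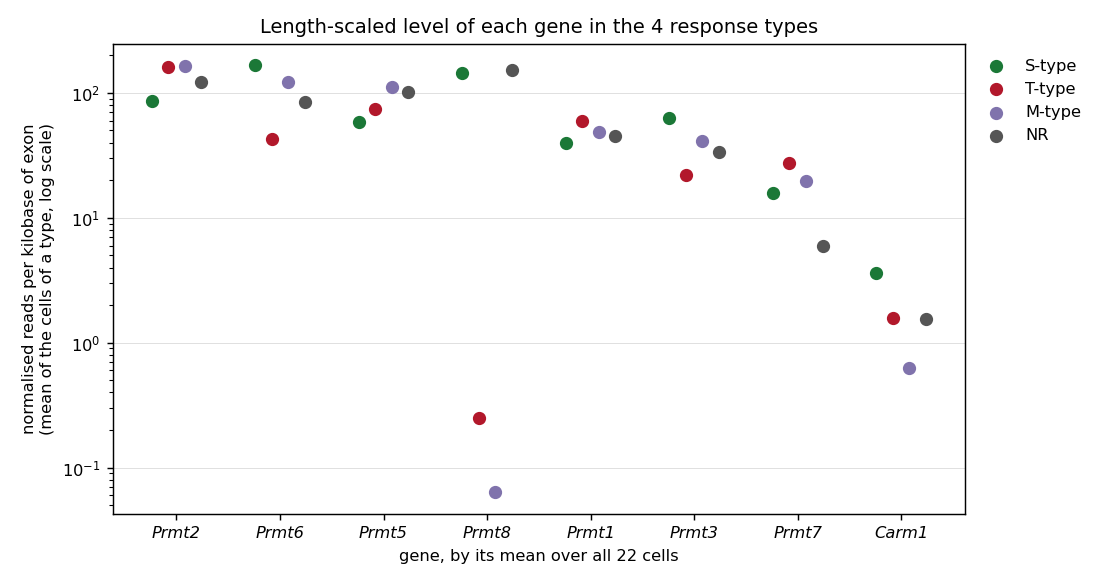
Points give the level of each gene in the 4 response types, as normalised reads per kilobase of exon on a log axis, with genes ordered by their mean over the 22 cells. Prmt8 lies at 0.0634 in M-type and 0.251 in T-type but at 144 in S-type and higher still in NR, while Prmt2, Prmt5 and Prmt1 each stay within a narrow band.

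Prmt1 (chr7:44975989-44986568, minus strand), the main type I enzyme, had levels within 2-fold of each other in all types. The level was 137 normalised counts in S-type (lowest cell 27.1, median 137, highest 275) and 204 in T-type (lowest 0, median 148, highest 572). In M-type the 5 cells had 386, 145, 80.6, 203 and 12.5, and in NR they had 67.4, 96.4, 284, 46.7 and 278, with levels between those of S-type and T-type. Cells of all types overlapped, and the order T-type, M-type, NR, S-type rested on steps of 1.07- to 1.24-fold between neighbours. T-type 5 held 46.6% of the summed T-type level, and the T-type versus S-type log2 ratio of 0.58 (95% interval 0.46 to 0.70) became -0.06 without it.

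Prmt8 (chr6:127689011-127769472, minus strand), which is tethered to the plasma membrane by an N-terminal lipid, was read in quantity in 5 cells and was at or near 0 in the rest. S-type cells 1 to 6 had 0, 0, 1749, 600, 3.14 and 5.19 normalised counts, a level of 393. NR cells 1 to 5 had 4.25, 971, 227, 847 and 0.927, a level of 410. Both types thus held cells with 227 or more normalised counts beside cells with at most 5.19, and S-type 3 alone held 74.2% of the S-type sum.

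T-type cells had 2.82, 0, 0, 0, 0 and 1.28 normalised counts of Prmt8, from 4 reads in all, and M-type cells had 0, 0, 0, 0 and 0.864, from 2 reads in M-type 5. The 5 cells above 100 reads were S-type 3 (2871 reads), S-type 4 (685), NR 2 (1712), NR 3 (315) and NR 4 (1417), and each of the other 17 had at most 7. Every M-type cell was below every NR cell, but at the boundary this rested on 2 reads in M-type 5 against 1 read in NR 5, and T-type overlapped both S-type and NR.

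The log2 ratio of Prmt8 was -9.17 for T-type versus S-type (95% interval -11.05 to -7.81), -9.23 for T-type versus NR (-11.11 to -7.87) and -11.21 for M-type versus NR (-14.26 to -9.36). It was -0.06 for S-type versus NR (-0.13 to 0.01). Leaving out single cells kept the first 3 far below -1: T-type versus S-type was -7.48 without S-type 3 and -10.58 without T-type 1, T-type versus NR was -8.63 without NR 2 and -10.64 without T-type 1, and M-type versus NR was -10.61 without NR 2 and -9.92 without M-type 5. The S-type versus NR ratio became -1.75 without S-type 3. With the median over the cells of a type in place of the mean, it was -5.76, since the median S-type cell had 4.17 normalised counts and the median NR cell 227, and the T-type versus S-type ratio was -2.74.

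Because Prmt8 is known from neurons, neuronal markers were set beside it. The 10 neuronal markers summed to 38.1 to 2076 CPM, and their rank correlation with Prmt8 over the 22 cells was -0.03. Slc17a7 had no read in any cell, and Rbfox3 reached at most 14.6 CPM, in an NR cell. Snap25 also peaked among NR cells, at 25.5 CPM against at most 1.22 elsewhere. Syt1 and Tubb3 instead peaked among T-type cells, at 20.7 and 101 CPM. Of the 10 markers, 9 were read among NR cells, 7 each among S-type and T-type cells and 6 among M-type cells. Stmn2 gave 2048 of the 2076 CPM of S-type 2, a cell without a Prmt8 read. Its median was 0.5 CPM over T-type cells and 26.3 over NR cells, where the summed list had medians of 119 and 205. Microglial markers, at 0 to 0.0623 CPM in S-type and 0.0566 to 37.7 in NR, had a rank correlation of 0.27 with Prmt8. The correlation with the number of genes read in a cell was 0.52. The part of these in the Prmt8 pattern was not tested.

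**Figure D3:**
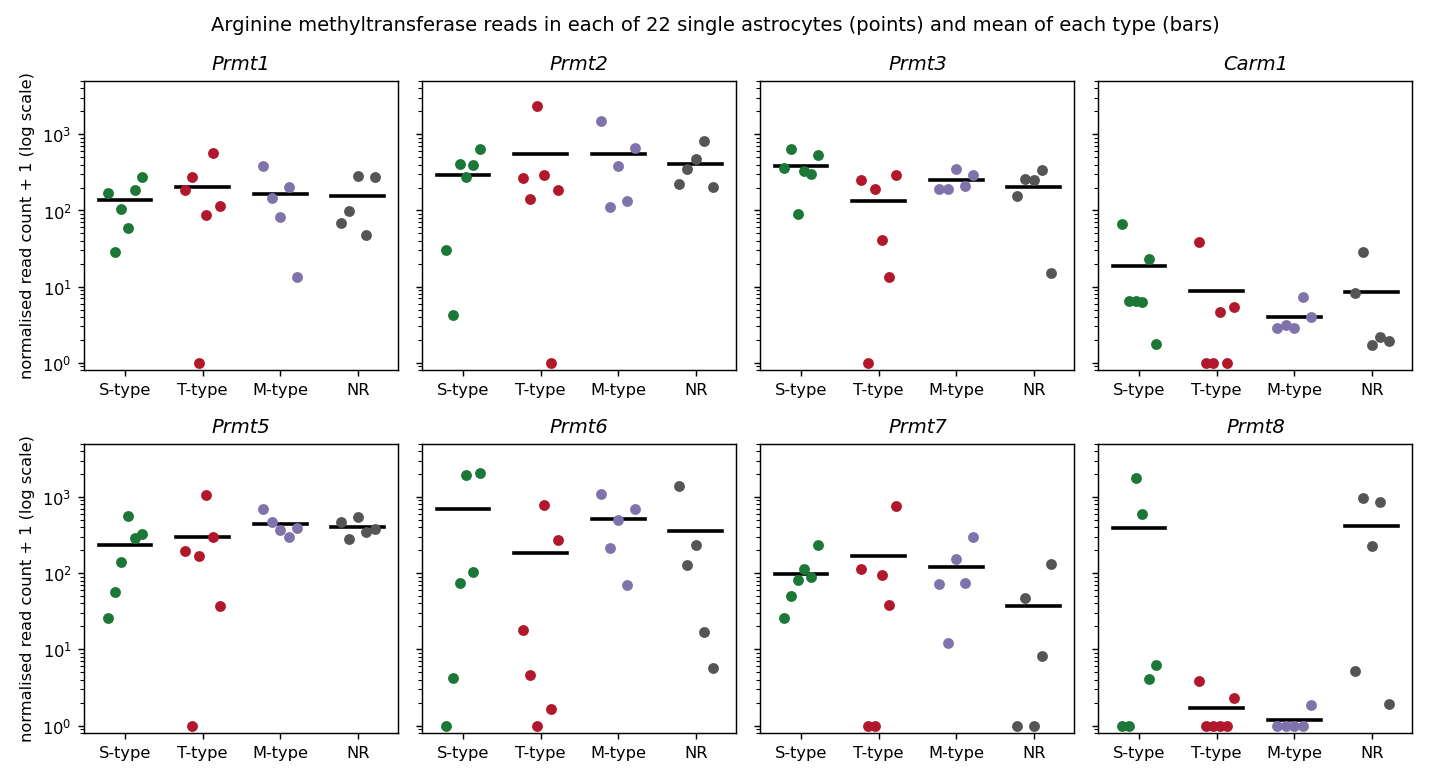
Each point is 1 cell, by response type, with the normalised read count plus 1 on a log axis, and black bars mark the mean of a type. Prmt8 splits into 5 cells at 227 or more normalised counts (3 NR and 2 S-type cells) and 17 at most at 5.19, whereas Prmt5 lies between 280 and 687 in all M-type and NR cells.

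Prmt3 (chr7:49778346-49858265, plus strand), a cytosolic enzyme that methylates a protein of the small ribosomal subunit, was highest in S-type and lowest in T-type. The S-type cells had 88.9 to 646 normalised counts (median 347), a level of 378. The T-type cells had 0 to 291 (median 116), a level of 131. M-type cells were close to each other at 190, 188, 354, 211 and 291, a level of 247, and NR cells had 152, 256, 250, 342 and 13.9, a level of 203.

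T-type versus S-type gave a log2 ratio of -1.53 for Prmt3 (-1.65 to -1.41), and it stayed between -1.93 and -1.27 with any 1 cell left out. The cells of these types overlapped, since 3 T-type cells lay above the lowest S-type cell. Prmt3 did not pass 2-fold in the other comparisons, with log2 ratios of -0.63 for T-type versus NR, 0.90 for S-type versus NR and 0.28 for M-type versus NR. Prmt3 was also the member with the smallest share in its highest cell, 12.2% of the sum over 22 cells in S-type 2.

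Prmt6 (chr3:110246109-110250998, minus strand), a nuclear enzyme that methylates histone H3 and acts on gene silencing, had the most reads of the family (13860) and a wide spread in every type. S-type cells 1 to 6 had 0, 3.25, 73.1, 1930, 104 and 2068 normalised counts, a level of 696. T-type cells had 16.9, 3.63, 0, 790, 0.648 and 274, a level of 181. S-type 4 and S-type 6 carried most of the S-type sum, and T-type 4 held 72.8% of the T-type sum.

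M-type was the type in which every cell held Prmt6 in quantity, at 1088, 214, 504, 69 and 702 normalised counts, a level of 515. NR cells had 1387, 128, 230, 16.1 and 4.64, a level of 353, with 78.5% of the sum in NR 1. The T-type versus S-type log2 ratio was -1.95 (-2.05 to -1.84). It was -3.56 without T-type 4, -1.31 without S-type 4 and -1.22 without S-type 6, so the value moved but stayed past 2-fold. Against NR the log2 ratios were -0.97 in T-type, 0.98 in S-type and 0.55 in M-type. Without NR 1 these became 0.93, 2.88 and 2.44, so the first changed sign and the others passed 2-fold through the loss of 1 cell.

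Prmt2 (chr10:76207222-76237865, minus strand), a type I enzyme with an SH3 domain and weak activity of its own that acts as a coactivator of nuclear receptors, had the highest level per kilobase. S-type cells had 3.25 to 634 normalised counts (median 333), a level of 290, and T-type cells 0 to 2384 (median 227), a level of 545. In M-type the values were 1500, 110, 384, 134 and 656, a level of 557, and in NR they were 223, 352, 472, 809 and 203, a level of 412. T-type 3, the smallest library, held 72.9% of the T-type sum from 437 reads. Without it the T-type versus S-type log2 ratio of 0.91 became -0.71 and the T-type versus NR ratio of 0.40 became -1.22. M-type 1 held 53.9% of the M-type sum.

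Carm1 (chr9:21546894-21592623, plus strand), a coactivator that methylates histone H3 and splicing proteins, was read at a very low level. The S-type cells had 123 reads, the T-type cells 36, the M-type cells 29 and the NR cells 64, and no cell had more than 74. Normalised counts were 0.742 to 65.7 in S-type (median 5.45) and 0 to 38 in T-type (median 1.82). M-type cells had 1.88, 2.1, 1.88, 6.23 and 3.02, and NR cells 7.28, 27.2, 0.719, 1.2 and 0.927. Highest cells held 62.8% of the Carm1 sum in S-type, 82.4% in T-type, 72.9% in NR and 41.2% in M-type.

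The level of Carm1 was 17.4 in S-type, 7.69 in T-type, 7.47 in NR and 3.02 in M-type. The T-type versus S-type log2 ratio of -1.18 (-1.76 to -0.63) became -0.02 without S-type 1 and -3.42 without T-type 1, and it was -0.92 without T-type 2, T-type 3 or T-type 5. The S-type versus NR ratio of 1.22 (0.77 to 1.68) became 0.06 without S-type 1, 2.78 without NR 2, 0.93 without NR 3, 0.95 without NR 4 and 0.94 without NR 5. The M-type versus NR ratio of -1.31 (-1.99 to -0.65) became 0.25 without NR 2.

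Prmt5 (chr14:54507187-54517525, minus strand), the main enzyme of symmetric dimethylation, which works with Wdr77 on spliceosomal proteins and histones, was the most even member in NR and, after Prmt3, the most even in M-type. M-type cells had 687, 469, 364, 297 and 394 normalised counts, a level of 442 and a coefficient of variation of 0.34. NR cells had 463, 280, 547, 349 and 384, a level of 404 and a coefficient of variation of 0.256. S-type cells spread from 24.9 to 556 (median 214, level 231) and T-type cells from 0 to 1069 (level 295), so both reached lower values than any M-type or NR cell, and T-type also a higher one. T-type 4 held 60.4% of the T-type sum, and without it the T-type versus NR log2 ratio of -0.46 (-0.55 to -0.36) became -1.53. Prmt5 did not pass 2-fold in any of the 4 comparisons.

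Prmt7 (chr8:106210936-106252794, plus strand), the monomethylating enzyme, was lowest in NR. NR cells had 0, 45.9, 0, 7.18 and 129 normalised counts, a level of 36.4, and M-type cells had 11.2 to 297 (median 73.7), a level of 121. In S-type the cells had 24.9 to 230 (median 83.5), a level of 97.2, and every S-type cell was read. T-type cells had 113, 0, 0, 93, 37.6 and 756, a level of 167, with 75.7% of the sum in T-type 6.

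The log2 ratio of Prmt7 against NR was 2.19 in T-type (1.99 to 2.40), 1.42 in S-type (1.20 to 1.64) and 1.73 in M-type (1.53 to 1.94). These 3 ratios share the NR cells, of which NR 5 held 70.8% of the NR sum, and without NR 5 they became 3.65, 2.87 and 3.19. T-type versus NR was 0.42 without T-type 6, S-type versus NR was 0.96 without S-type 6, and M-type versus NR was 1.08 without M-type 5. NR and each responding type overlapped in their cells.

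Counted over the family, T-type versus S-type had 0 of 8 members at least 2-fold higher and 4 at least 2-fold lower (Prmt3, Carm1, Prmt6 and Prmt8). Of the 12698 genes compared, 26.0% were 2-fold higher and 32.3% were 2-fold lower in T-type. The median log2 ratio was -0.42 over the members and -0.07 over all genes. No member had cells of the types apart, against 0.849% of genes whose mean level was 10 normalised counts or more. Without T-type 2 and T-type 3, Carm1 left the list with -0.60 and Prmt7, at 0.78 with all cells, was 2-fold higher with 1.36, whereas without T-type 6 alone Prmt7 was at -1.0. Prmt2, at 0.91, ran from -0.71 to 1.30 with 1 cell left out and was -0.64 without both T-type 2 and T-type 3.

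T-type versus NR had 1 member higher (Prmt7) and 1 lower (Prmt8), where 28.7% of 12695 genes were higher and 32.5% were lower. The share of members past 2-fold was 25%, beside 61.2% of all genes. The median was -0.21 over the members and -0.05 over all genes, and no member had its cells apart, against 1.07% of genes. The count of 2 members became 4 without T-type 4, which added Prmt5 (-1.53) and Prmt6 (-2.58), and 4 without NR 2, which added Carm1 (1.60) and Prmt6 (-1.18). This comparison and the previous one share the T-type cells.

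S-type versus NR had 2 members higher (Carm1 and Prmt7) and 0 lower, where 25.1% of 12717 genes were higher and 22.4% were lower. The median was 0.42 over the members and 0.03 over all genes, and no member had its cells apart, against 0.433% of genes. The count became 5 without S-type 3, which added Prmt3 (1.11), Prmt6 (1.22) and Prmt8 (-1.75), and 1 without S-type 6, NR 3 or NR 5.

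M-type versus NR had 1 member higher (Prmt7) and 2 lower (Carm1 and Prmt8), where 19.8% of 12710 genes were higher and 28.1% were lower. The median was 0.21 over the members and -0.20 over all genes. Prmt8 was the 1 member whose cells did not overlap, against 0.649% of genes. The share of members past 2-fold was 50%, beside 58.3% of all genes, in T-type versus S-type. It was 25% beside 47.5% in S-type versus NR and 37.5% beside 47.9% in M-type versus NR. With 1 cell left out, the counts of members in these comparisons reached 6, 5 and 4 of 8. The 4 comparisons also share cells, so nothing is read from the shares lying below those of all genes.

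**Figure D4:**
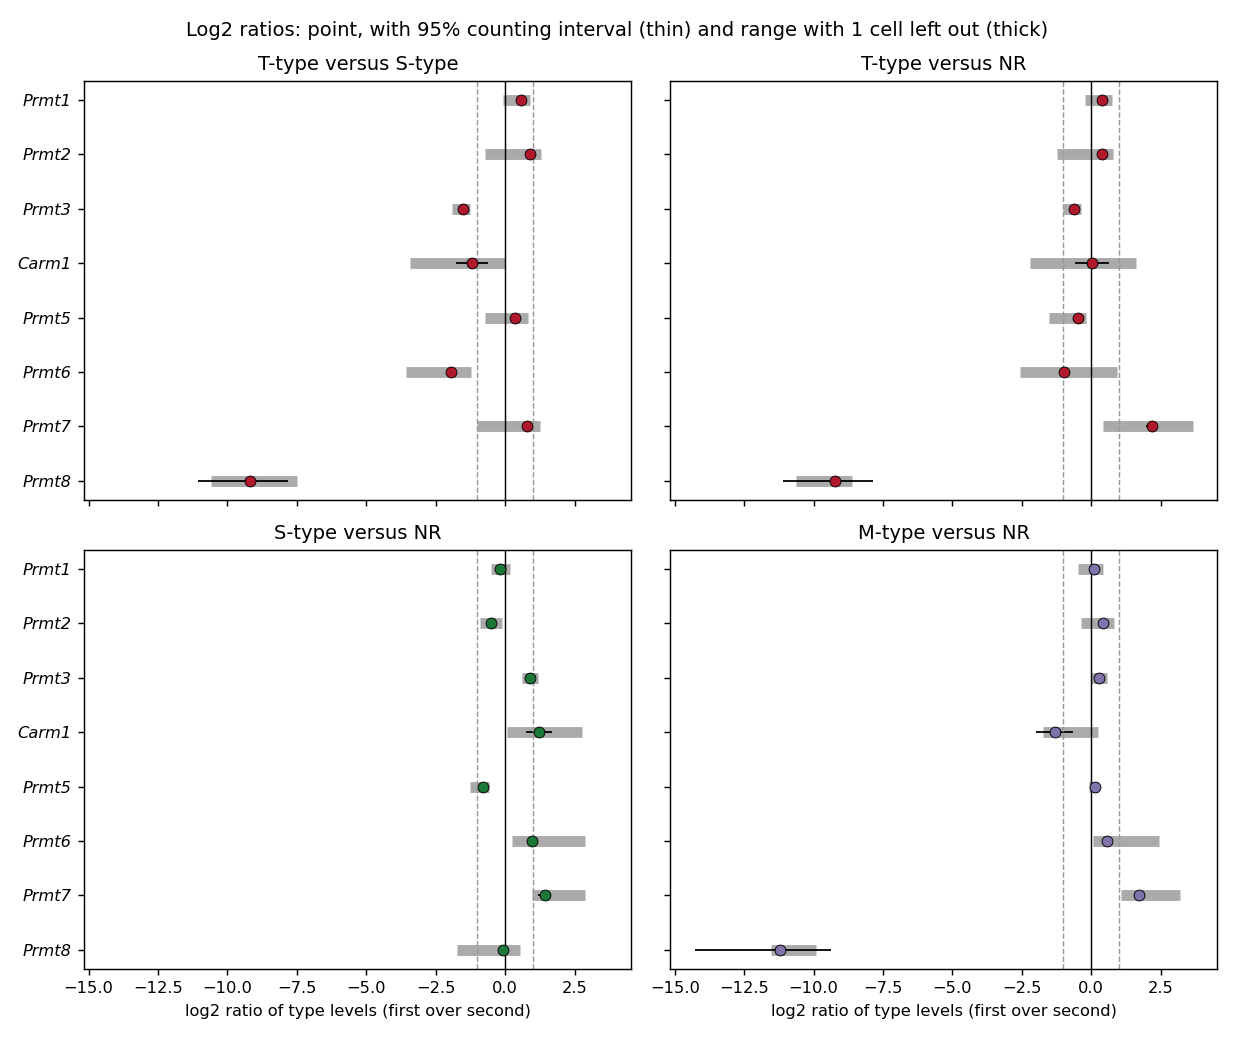
For each comparison, points give the log2 ratio of the type levels (first type over second), thin lines the 95% counting interval and thick grey lines the range with 1 cell left out, and dashed lines mark 2-fold. Prmt8 lies at -9.17, -9.23 and -11.21 in the 3 comparisons of T-type or M-type with a type that holds it. The grey ranges of every member but Prmt8 are wider than their counting intervals in each comparison.

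Across the 22 cells the members did not move as a block. Among the 28 pairs of members, Spearman correlations of the normalised counts ran from -0.36 (Prmt1 and Prmt3) to 0.66 (Prmt5 and Prmt6), with a median of 0.09. Points of such a correlation are cells that also share a library depth and a number of genes read, and with the latter the members had correlations from -0.30 (Prmt1) to 0.52 (Prmt6 and Prmt8). The genes most like a member were sought among genes with a mean level of 10 or more that were read in 15 or more of the 22 cells. For Prmt2 these included Stx18 (Spearman 0.84) and Per3 (0.77), and for Prmt6 they were Zfp40, Ankrd16 and Rasa2 (0.80 each). For Prmt8, sought among the 11550 genes of that level read in 5 or more cells, they were Fabp3 (0.82), Plxnc1 (0.81) and Accs (0.80). By Pearson correlation of log2 values Zfp40 stayed first for Prmt6 (0.87), but Pyurf (0.87) came first for Prmt2 and Rit2 (0.84) for Prmt8, with Fabp3 at rank 23.

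A ninth family member, listed as Prmt10 and now named Prmt9, is a type II enzyme that acts on a splicing factor. It had 10637 reads in 19 cells, with a level of 789 normalised counts in M-type, 211 in NR, 194 in T-type and 147 in S-type. M-type 1 held 81.5% of the M-type sum, and the M-type versus NR log2 ratio of 1.91 became -0.21 without it. Ndufaf7, an arginine methyltransferase of mitochondria, had a log2 ratio of -1.40 for M-type versus NR, which became -0.81 without NR 1, and was within 2-fold in the other 3 comparisons.

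Partners of the enzymes were examined as lists, of which at most 3 genes with the most reads are named. The partners of Prmt5 (Wdr77, its obligate cofactor, and the adaptors Clns1a, Coprs and Riok1) were at least 2-fold higher in T-type than in NR for 4 of 4 genes, with a median log2 ratio of 1.41 against -0.05 over all genes, of which 28.7% were 2-fold higher. With any 1 cell left out, 1 of the 4 stayed past 2-fold. Coprs had a level of 569 normalised counts in NR and 2162 in T-type, a log2 ratio of 1.93 that stayed between 1.65 and 2.28 with any 1 cell left out. Wdr77 had 1.50, which became 0.99 without T-type 3 and 2.24 without NR 1, and Clns1a had 1.31, which became 0.47 without T-type 5, 0.89 without T-type 6 and 2.19 without NR 2. Riok1, named here after its values were seen, had 1.15, which turned to -2.37 without T-type 4, became 0.86, 0.83 and 0.82 without NR 3, NR 4 and NR 5, and 2.11 without NR 1. The enzyme itself, Prmt5, had -0.46 in the same comparison. In T-type versus S-type, S-type versus NR and M-type versus NR, 2 of the 4 partners were 2-fold higher and none was 2-fold lower, where 26.0%, 25.1% and 19.8% of all genes were higher. With any 1 cell left out, 1 of these partners (Coprs, in T-type versus S-type) stayed past 2-fold. Wdr77 in S-type versus NR, for example, went from 1.44 to 0.53 without S-type 1.

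The antiproliferative factors Btg2, Btg1 and Tob1 were listed as regulators of Prmt1, and whether each of them binds Prmt1 was not examined. In S-type 3 of 3 were 2-fold lower than in NR, where 22.4% of all genes were lower. Their median was -1.54 against 0.03 over all genes. Btg1 had a level of 1032 in NR, 354 in S-type, 269 in M-type and 180 in T-type. Its log2 ratio against NR was -2.52 in T-type (-4.95 without T-type 4), -1.54 in S-type (-2.19 without S-type 6) and -1.94 in M-type. Btg2 had -4.22 in T-type versus NR, which was -8.15 without T-type 4 and -3.35 without NR 4, and -1.26 in S-type versus NR, which was -2.88 without S-type 1 and -0.39 without NR 4. Tob1 had -1.59 in S-type versus NR, which was -0.83 without NR 5. In T-type versus NR 2 of 3 were lower (32.5% of all genes), and in M-type versus NR 1 of 3 was lower (28.1%). In T-type versus S-type 1 was lower, Btg2 at -2.96, and 1 was higher, Tob1 at 1.77, which became 0.32 without T-type 4. Without S-type 1 the Btg2 value was -1.34, and without T-type 4 it was -6.89. Prmt1 itself had log2 ratios between -0.18 and 0.40 against NR.

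Known substrates among RNA-binding proteins were 2-fold higher in T-type than in NR for 7 of 14 genes and 2-fold lower for 2, with a median of 0.98 against -0.05, where 28.7% of all genes were higher and 32.5% lower. With any 1 cell left out, 1 of the 7 and 0 of the 2 stayed past 2-fold. Ncl, a nucleolar protein, had a level of 4100 in NR and 19435 in T-type, a log2 ratio of 2.25 (1.91 to 2.49 with any 1 cell left out). Hnrnpa2b1, a splicing and transport factor, had 3.14, which became 0.78 without T-type 2, and Serbp1 had 1.44, which became 0.89 without that same cell. Against S-type, 4 of 13 substrates were higher in T-type and 1 was lower, beside 26.0% and 32.3% of all genes. With any 1 cell left out, 0 of those 4 and the 1 lower stayed past 2-fold. Of 14, S-type had 3 higher and 2 lower than NR, beside 25.1% and 22.4% of all genes, and M-type 1 higher and 2 lower, beside 19.8% and 28.1%. Hnrnpa1, named here after its values were seen, was among the lower genes in all comparisons with NR, from 57 reads in the 22 cells. Without NR 3 its log2 ratio went from -4.34 to -0.60 in T-type, from -5.63 to -1.90 in S-type and from -3.13 to 0.60 in M-type.

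Readers of methylarginine (Smndc1, Tdrd3, Smn1 and 1 more) had at most 1 of 4 genes past 2-fold in each direction in every comparison. Of all genes, 19.8% to 32.5% were past 2-fold in a direction, so this count is near the general share. With any 1 cell left out, none of these readers stayed past 2-fold. Tdrd3, which binds asymmetric dimethylarginine on histones, had a level of 1636 in S-type, 914 in NR, 427 in T-type and 368 in M-type. S-type 2 set its T-type versus S-type log2 ratio, which went from -1.94 to -0.22 without that cell and to -2.54 without T-type 3. Without NR 1 the Tdrd3 ratio against NR went from -1.31 to -0.05 in M-type and from -1.10 to 0.16 in T-type. Smn1, the reader of spliceosomal proteins that Prmt5 methylates, had its highest level in M-type (306) and its lowest in NR (124), with S-type at 273 and T-type at 191. Its log2 ratio against NR was 1.30 in M-type (0.91 to 1.89 with any 1 cell left out) and 1.13 in S-type (0.72 to 1.72). The M-type cells ran from 9.1 to 599 and the NR cells from 0 to 290.

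Of the 3 listed enzymes that break down free asymmetric dimethylarginine after its release from proteins, Ddah1 and Ddah2 were compared, and Agxt2 had 8 reads in 1 cell. Ddah1 was at 31611 normalised counts in T-type, 16159 in M-type, 12756 in NR and 11540 in S-type. The 6 T-type cells had 15888 to 73642 and the 6 S-type cells 7268 to 15819, which did not overlap (as for 0.849% of genes) but met closely at 15888 and 15819, and the log2 ratio was 1.45 (1.01 to 1.59 with any 1 cell left out). Ddah2 had a log2 ratio of 1.52 for T-type versus S-type and 2.26 for T-type versus NR, and its T-type cells ran from 5.45 to 9230. Ddah1 in T-type versus NR had 1.31, which became 0.86 without T-type 2.

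The methyl donor cycle makes and recycles S-adenosylmethionine. Of its 13 listed genes 9 were compared. T-type had 3 of them 2-fold higher and 3 lower than S-type, beside 26.0% and 32.3% of all genes, and 3 higher and 2 lower than NR, beside 28.7% and 32.5%. S-type had 4 higher than NR (25.1% of all genes), M-type had 2 (19.8%), and neither had one 2-fold lower. With any 1 cell left out, 1 of these 4 and 1 of these 2 stayed past 2-fold. In T-type versus S-type 1 of the 3 higher and 2 of the 3 lower stayed, and in T-type versus NR 2 of the 3 higher and both lower. Ahcyl1, related to the hydrolase of S-adenosylhomocysteine, was among those higher in T-type than in S-type with 1.04, and was at 0.94 to 1.00 without any 1 of T-type 3, T-type 5, T-type 6, S-type 2 and S-type 6. Mat2a, the synthase subunit used outside the liver, had a level of 5733 in S-type and 2512 in NR, with T-type (4087) and M-type (3827) between them, and the S-type versus NR log2 ratio of 1.19 became 0.95 without NR 1. Its partner Mat2b was within 2-fold in all 4 comparisons.

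Other genes that the study lists as users of S-adenosylmethionine for methylation had been singled out on these same cells, as had Prmt8. Their count is therefore no independent evidence of a direction. All 5 genes of that list were 2-fold lower in T-type, both against S-type and against NR, beside 32.3% and 32.5% of all genes. S-type had 1 lower and 2 higher than NR, beside 22.4% and 25.1% of all genes. M-type had 3 lower and 1 higher than NR, beside 28.1% and 19.8%. Mettl18, a histidine methyltransferase, had 2 T-type reads against 1295 in S-type and 2029 in NR. Its log2 ratio was -9.03 for T-type versus S-type (95% interval -12.08 to -7.17), and -10.43 without T-type 1. Rngtt, an RNA capping enzyme that the study groups with methyltransferases, had -3.95 in the same comparison, and -5.68 without T-type 4. Of the arginine methyltransferases described here, Prmt8 was the 1 member with fewer than 10 reads in all T-type cells.

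**Figure D5:**
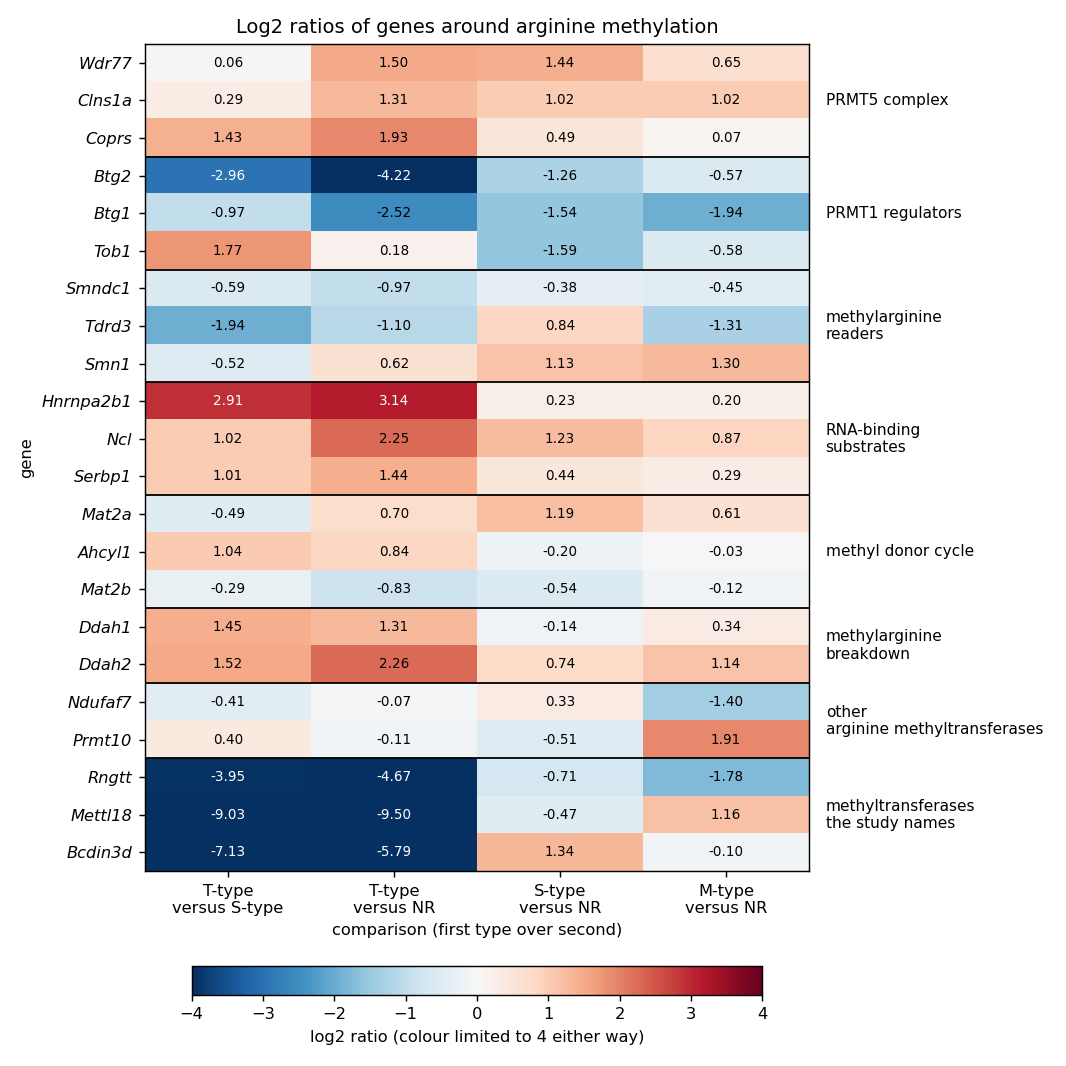
Colours and printed values give the log2 ratio of type levels (first type over second) for up to 3 genes of each list around arginine methylation, the ones with the most reads. The 3 partners of Prmt5 are all positive in the T-type versus NR column, from 1.31 to 1.93. The 3 genes listed as regulators of Prmt1 are all negative in the S-type versus NR column, from -1.59 to -1.26.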

How the data were processed

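Each library was the RNA of 1 astrocyte, amplified linearly, made with a stranded mRNA kit and sequenced on a NextSeq. After trimming, reads were aligned with STAR to GRCm38 by the authors, who deposited 1 table of raw counts of uniquely aligned exonic reads per gene. Their methods name VERSE as the counter and the submitters' processing notes name STAR and HTSeq, with versions and strand setting not given in the sources used here. All 22 columns were matched to their labels through the response row of the table, and 0 columns were left unused.

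The members, lists and comparisons were chosen with earlier results of these data known. Size factors were medians of ratios over the 3670 genes read in every cell. The level of a type was the mean of normalised counts over its cells, 3 reads over the cells of a type stood in for a level of 0, and a log2 ratio of at least 1 or at most -1 counted as past 2-fold. Ratios were taken over the 12719 genes read in 5 or more cells, and the comparison itself was that of the study without its test over cells, since no label names the pup or culture of a cell. Intervals take the width of the exact 95% binomial (Clopper-Pearson) interval of the split of summed raw reads. They were shifted to lie around the log2 ratio of type levels, so they are not exact for that ratio, and they cover counting error only. Totals ran from 2937786 reads (T-type 3) to 22131076, and T-type 2, with 12564138 reads, had a low size factor and the fewest genes read.

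All 8 members were described. Of each list, counts are given and at most 3 genes, the most read ones, are named, and for 3 members the 3 genes with the highest Spearman correlation are named, except 1 gene that is not reported here. Alternatives were TMM factors, CPM, the median over cells, thinning every cell to 2937786 reads, a pseudocount of 1, other filters on low counts, Pearson in place of Spearman correlation, and leaving out each cell in turn. Leaving out the 2 libraries with a size factor far below the median (T-type 2 and T-type 3) and leaving out each cell for the lists were chosen after seeing the data. Coding sequences and positions are from GENCODE vM21 on GRCm38. The script was tested on simulated data. Python 3.11.15, NumPy 2.4.6, pandas 2.3.3, SciPy 1.17.1, matplotlib 3.10.9, R 4.3.3 and edgeR 4.0.16 (for TMM factors only) were used.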

Additional observations from a re-analysis of the deposited data

Results flagged for a closer look

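Of 36 groups of 5 or 6 cells, 12 held 1 cell whose gap to its nearest neighbour exceeded Dixon's 95% limit for the range of its type, where chance flags about 1 in 20. That rate holds for normally distributed values, and these counts are skewed with many zeros, so nothing is read from the number flagged. The values were not independent of each other, since a cell enters once for every gene. Values are normalised read counts unless another unit is given.

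Prmt8 in S-type 3 was 1749, against 600 in the next cell. Prmt8 in M-type 5 was 0.864, from 2 reads, against 0 in the other 4 M-type cells. Prmt2 in T-type 3, the smallest library, was 2384, against 290 in the next T-type cell.

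Carm1 held 1 such cell in each type, with 65.7 in S-type 1 (next 22), 38 in T-type 1 (next 4.48), 6.23 in M-type 4 (next 3.02) and 27.2 in NR 2 (next 7.28). These rest on at most 74 reads.

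T-type 4 was high for both Prmt5, at 1069 (next 297), and Prmt6, at 790 (next 274). Prmt6 in NR 1 was 1387 (next 230), and Prmt7 in T-type 6 was 756 (next 113). The summed level of the 8 members in NR 5 was 61.9 CPM, the lowest of its type.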

How the results depend on the processing

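With cells as the only repeats and no test, the limits are single cells and depth. The number of members past 2-fold in T-type versus NR was 2, 5 with the median over the cells in place of the mean (Prmt3, Prmt5 and Prmt6 added), 3 under CPM and 2 under TMM factors, and 2 to 4 with 1 cell left out. In S-type versus NR it was 2, and 1 to 5 with 1 cell left out. T-type versus S-type (4) ran from 3 to 6 and M-type versus NR (3) from 2 to 4 with 1 cell left out. The Carm1 log2 ratio for M-type versus NR (-1.31) changed sign to 0.81 with the median over the cells and to 0.25 without NR 2, and ran from -1.75 to 0.25 with 1 cell left out. Of 528 alternative values of the members' log2 ratios, 239 lay within the counting interval of the value given, 287 lay outside it and these 2 changed the sign of a value past 2-fold.

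CPM moved the median of all genes from -0.07 to -0.45 in T-type versus S-type and from -0.05 to -0.45 in T-type versus NR, and the members' medians to -0.84 and -0.70. Under CPM the Prmt8 and Prmt3 calls are read relative to that shift. Counting intervals were widest for Prmt8 in the comparisons that rest on 2 or 4 reads in a type. No paired analysis was possible because no label names the pup or culture of a cell and the replicate numbers only follow accession order.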
